A study of Homo sapiens with 5 samples.

Results

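The genes described here are 44 genes of DNA replication and nucleotide synthesis, picked by name for their known roles in S phase out of 27189 gene entries measured in each library. They comprise the MCM helicase and its loaders, the GINS complex, the sliding clamp and its loader, and the replicative polymerases with primase. Further members are the RPA complex, the enzymes that finish Okazaki fragments and enzymes that make deoxynucleotides. The last are CCNE1, CCNE2 and E2F1, regulators of the G1 to S transition, and UHRF1, which guides the copying of DNA methylation. The rule takes names and no measured value, although the list was drawn up with earlier results of these data known. Each of the 44 was found in the files and reached at least 1 TPM (transcripts per 1000000 transcripts, a level corrected for transcript length) in at least 1 of 5 libraries, although POLE2 did so through a single read in a single library.

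RNA was sequenced from HT1080 cells, an established human fibrosarcoma line, after 24 h in matrices of type I collagen at 2 mg per ml. LD was seeded at low density, 10 cells per cubic mm, and HD at high density, 50 cells per cubic mm. IL-6, IL-8 and RM were low-density cultures at 10 cells per cubic mm that received interleukin 6, interleukin 8, or both cytokines at an IL-6 to IL-8 ratio of 5 to 2. Each condition was 1 library from 1 experiment, so no difference below has a replicate check and none carries a p-value. The comparisons ask whether the cytokines, alone or together, or the higher seeding density went with other levels of the replication genes.

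Before S phase, ORC, CDC6 and CDT1 load the ring of MCM2 to MCM7 onto origins, and geminin (GMNN) holds CDT1 back once replication has begun. Cyclin E and E2F1 drive the step from G1 into S, in which the loaded ring joins CDC45 and GINS to unwind DNA, polymerase alpha with primase lays down primers, and polymerases delta and epsilon extend them on the clamp PCNA. Ribonucleotide reductase, thymidylate synthase, thymidine kinase and dUTPase supply the deoxynucleotides, and many of these genes are transcribed under E2F control in cycling cells such as tumour lines.

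The libraries held between 926376 counted reads, in HD, and 7118545, in LD, of which 51.5% in HD and 76.9% to 79.6% in the others fell on RNA5-8S5, an entry for ribosomal RNA. That entry was left out and TPM was rescaled to 1000000 over the rest. Outside it, HD kept 449661 reads and the low-density libraries 1100967 to 1645539. HD stood apart from the other libraries. Its 7 mesenchymal markers, all with reads in every library, summed to 3575 TPM against 12306 to 16111 TPM elsewhere. Of 5 leukocyte markers, 4 had reads in HD with a sum of 154 TPM, against 0 or 1 of 5 and at most 1.86 TPM elsewhere. Of 386 olfactory receptor genes, 240 had a read in HD with a sum of 7133 TPM, against 14 to 37 genes and 22.7 to 111 TPM elsewhere. The labels call the source epithelial cells of connective tissue. Of the 4 epithelial markers in the files, EPCAM and ESRP1 had no read in any low-density library, and the list summed to 38.5 TPM in LD, 66.7 in HD and 15.6, 10.5 and 3.23 TPM with IL-6, IL-8 and both, most of it KRT19 outside HD.

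Most of the 44 genes were expressed at low to moderate levels. With the libraries in the order LD, then IL-6, then IL-8, then RM, then HD, which is kept below, at least 1 read was counted for 43, 42, 41, 40 and 41 of them, and the median gene had 46, 37, 31.5, 34.5 and 7 reads. Median levels lay close together, at 19.9, 17.9, 18.0, 13.2 and 16.0 TPM. In sum the genes took 3607 RPM (reads per 1000000 reads outside RNA5-8S5) in LD (95% Poisson interval 3516 to 3700), 3248 with IL-6 (3142 to 3356), 3631 with IL-8 (3520 to 3744), 3890 for RM (3789 to 3994) and 1050 in the HD library (957 to 1149). The summed share was therefore lowest in HD, and the low-density libraries lay within a narrow band above it. POLD2 alone gave much of that sum: without it the 5 values were 2479, 2357, 2582, 2524 and 1005. Such intervals cover the counting of reads only, since amplified reads are not independent molecules, and 3 reads, the limit that a count of 0 allows, correspond to 1.82 to 2.72 RPM in the low-density libraries and 6.67 in HD.

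**Figure D1:**
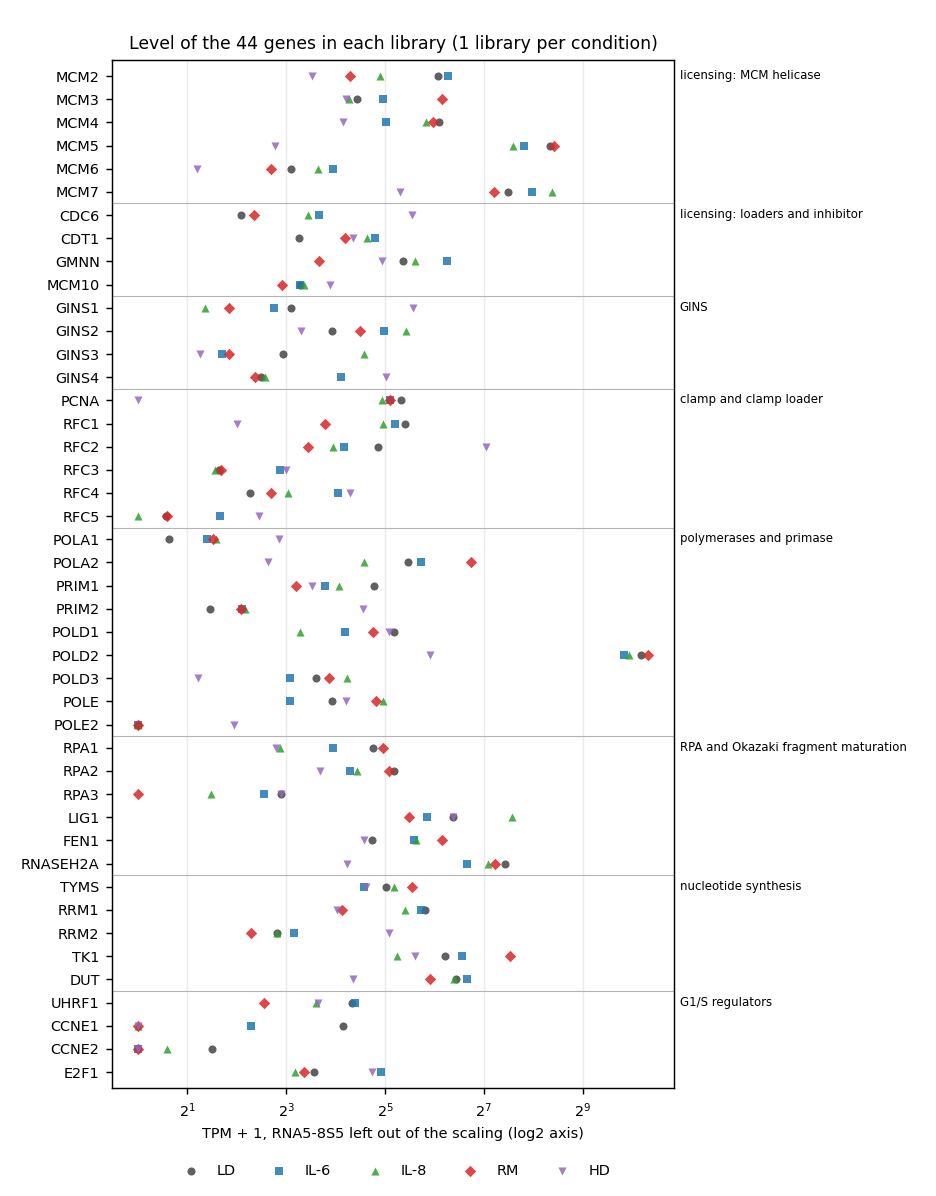
Level of each of the 44 genes, as TPM + 1 on a log2 axis, with 1 point per library and genes grouped by role. POLD2 stands to the right of every other gene in the low-density libraries, and the HD points lie farthest from the rest, to the left for MCM5, PCNA and POLD2 and to the right for CDC6, RFC2 and GINS1.

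Promoter sequences from RefSeq (GRCh38.p14) were matched for 37 of the 44 genes, and MCM4, MCM5, GINS4, POLD3, RPA2, RPA3 and CCNE2 had none in the table. Windows of 250 bases before each start were searched on both strands for the E2F motif letters TTCGCGC or TTGGCGC, for the CCAAT box and for the CHR letters TTTGAA. Other spellings of an E2F site were not searched for, so a window without these letters may still hold one. The E2F letters stood in 11 of the 37 genes, namely DUT, E2F1, GMNN, MCM6, MCM7, POLA1, POLA2, POLE, RPA1, RRM2 and UHRF1, which is 12 of their 50 promoters (24%) against 4.24% of 35116 promoters in the table. CCAAT was in 27 of the 50 promoters (54%) against 32%, and the CHR letters in 2 of 50 (4%) against 13.3%. The windows of these genes were also richer in G and C, with a median of 68.6% against 58%, and the part of base composition in these shares was not tested. The 4 promoters below are shown because MCM3 and POLA2 in RM lay at least 1 log2 unit above each other low-density library, and GMNN and UHRF1 at least 1 unit below, on the TPM scale described further on, where UHRF1 depends on the scaling. Capitals mark the E2F letters and CCAAT or its reverse ATTGG, and an ATTGG followed by CGC would count for both motifs.
MCM3, chr6:52284743-52284992, minus strand: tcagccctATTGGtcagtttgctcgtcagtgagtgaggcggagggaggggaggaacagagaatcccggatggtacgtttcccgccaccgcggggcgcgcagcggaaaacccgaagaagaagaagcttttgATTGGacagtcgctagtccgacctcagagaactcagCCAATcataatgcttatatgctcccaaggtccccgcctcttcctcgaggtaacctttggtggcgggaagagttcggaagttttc
POLA2, chr11:65261712-65261961, plus strand: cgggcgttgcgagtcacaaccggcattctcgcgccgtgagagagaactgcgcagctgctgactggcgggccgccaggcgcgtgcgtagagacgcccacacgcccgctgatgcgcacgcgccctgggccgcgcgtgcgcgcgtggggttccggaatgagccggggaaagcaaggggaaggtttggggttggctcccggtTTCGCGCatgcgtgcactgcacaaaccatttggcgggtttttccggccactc
GMNN, chr6:24775163-24775412, plus strand: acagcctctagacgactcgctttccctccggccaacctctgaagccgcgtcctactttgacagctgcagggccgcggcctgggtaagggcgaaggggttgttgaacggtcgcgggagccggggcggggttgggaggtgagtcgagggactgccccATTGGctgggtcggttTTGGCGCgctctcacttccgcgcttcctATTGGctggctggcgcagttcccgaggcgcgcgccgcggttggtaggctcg
UHRF1, chr19:4909894-4910143, plus strand: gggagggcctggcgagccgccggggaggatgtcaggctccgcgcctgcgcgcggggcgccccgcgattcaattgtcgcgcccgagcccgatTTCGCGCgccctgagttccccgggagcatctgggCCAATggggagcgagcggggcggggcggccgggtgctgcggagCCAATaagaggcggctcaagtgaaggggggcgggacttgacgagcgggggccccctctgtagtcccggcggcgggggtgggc
The window of MCM3 held 3 CCAAT boxes and neither TTCGCGC nor TTGGCGC on either strand, and other spellings of an E2F site were not searched for. POLA2 held a single E2F match, and GMNN and UHRF1 each held 1 E2F match beside 2 CCAAT boxes.

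The 6 subunits of the MCM ring, which are present in equal number in the helicase, had very unequal mRNA levels. In LD they ran from 7.61 TPM for MCM6 to 322 TPM for MCM5, a 42.3-fold range, and in RM the range was 62.5-fold. MCM5 stood at 322 TPM in LD (784 reads), 225 in IL-6 (377 reads), 191 in IL-8 (350 reads), 341 in RM (802 reads) and 5.81 in HD (4 reads). MCM7 stood at 179, 252, 334, 147 and 38.7 TPM in the same order, from 503, 476, 681, 398 and 22 reads. The most abundant subunit was therefore MCM5 in LD and RM and MCM7 in IL-6, IL-8 and HD. MCM3 was at 20.7 TPM in LD (64 reads), 30.2 in IL-6 (63 reads), 18.3 in IL-8 (42 reads), 69.9 in RM (216 reads) and 17.6 in HD (11 reads), so that RM alone was high. In RPM, MCM3 was 3.87 times as high in RM as in LD (95% counting interval 2.92 to 5.20). Each ratio given below with a counting interval is likewise a ratio of RPM, and may differ from the ratio of the TPM values. MCM2 went the other way, with 65.9 TPM in LD (226 reads), 76.3 in IL-6 (180 reads), 29 in IL-8 (69 reads), 18.7 in RM (59 reads) and 10.5 in HD (7 reads). It fell into a pair of higher libraries, LD and IL-6, and a pair of lower ones, IL-8 and RM, and its RPM in RM was 3.34 times lower than in LD (2.50 to 4.53). MCM4 was at 67.1, 31.3, 55.9, 61.6 and 16.7 TPM, from 324, 102, 196, 286 and 17 reads, with IL-6 the lowest of the low-density libraries. MCM6 was the scarcest subunit in every library, at 7.61, 14.5, 11.6, 5.46 and 1.30 TPM from 29, 37, 32, 20 and 1 reads. MCM2 overlaps TPRA1 and MCM7 overlaps AP4M1 on the opposite strand, and the libraries did not mark strand, so reads of such pairs cannot be told apart.

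**Figure D2:**
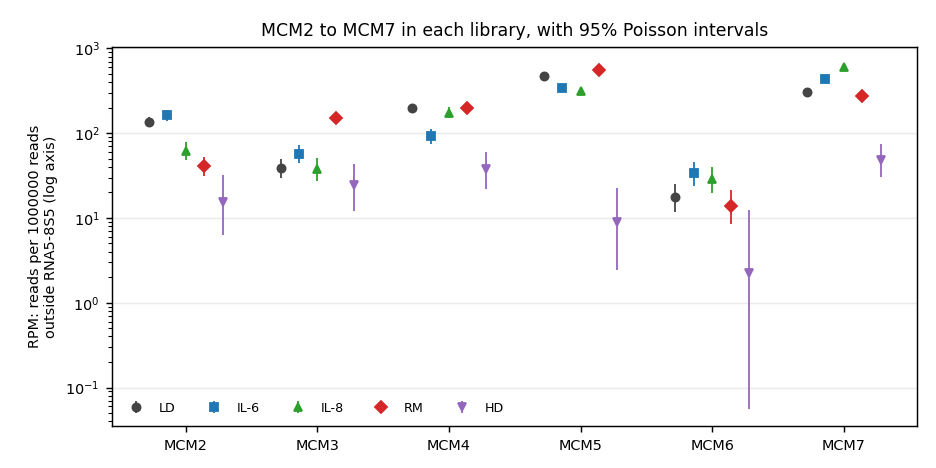
RPM of MCM2 to MCM7 on a log axis, 1 point per library, with 95% Poisson intervals. MCM3 in RM, at 216 reads, lies above its other 4 points, while MCM2 is lower in IL-8 and RM than in LD and IL-6, and the HD points carry the widest intervals.

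In LD the loaders were scarcer than most subunits of the ring they load. CDC6, the ATPase that recruits CDT1 and the ring to origins, had 3.28 TPM in LD (11 reads), 11.6 in IL-6 (24 reads), 9.95 in IL-8 (22 reads), 4.09 in RM (12 reads) and 45.7 in HD (29 reads). CDT1, its partner, had 8.60, 26.9, 23.9, 17.2 and 19.4 TPM from 23, 49, 47, 45 and 11 reads. Both were higher in IL-6 and in IL-8 than in LD. For CDC6 the ratio to LD was 3.26 in IL-6 (1.54 to 7.37) and 2.94 in IL-8 (1.36 to 6.71), and for CDT1 it was 3.18 (1.90 to 5.48) and 3.00 (1.79 to 5.18). In RM, CDT1 was again above LD, at a ratio of 2.24 (1.33 to 3.89), whereas the RM and LD values of CDC6 differed by less than the counting error. GMNN, the inhibitor of CDT1, had 40.2 TPM in LD (47 reads), 74.9 in IL-6 (57 reads), 47.7 in IL-8 (41 reads), 11.7 in RM (12 reads) and 29.7 in HD (7 reads). RM was thus the lowest library for GMNN, 3.41 times below LD in RPM (1.78 to 7.07), 6.19 times below IL-6 (3.28 to 12.7) and 4.37 times below IL-8 (2.25 to 9.14). MCM10, which helps to start the helicase, stayed between 6.57 and 13.9 TPM in the 5 libraries, and none of its ratios to LD had a counting interval that left out 1.

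The 4 GINS subunits, which form a single complex, did not share a pattern. GINS1 had 7.63 TPM in LD (27 reads), 5.74 in IL-6 (13 reads), 1.56 in IL-8 (4 reads), 2.57 in RM (9 reads) and 46.2 in HD (31 reads). GINS2 had 14.3, 30.7, 42, 21.4 and 8.86 TPM from 16, 23, 34, 23 and 2 reads, highest in IL-8. GINS3 had 6.67, 2.24, 22.7, 2.60 and 1.4 TPM from 15, 3, 34, 5 and 1 reads. IL-8 was thus lowest for GINS1 and highest for GINS2 and GINS3, with a ratio to LD of 3.12 for GINS2 (1.68 to 6.05) and 3.33 for GINS3 (1.76 to 6.58) and a 4.60 times lower value for GINS1 (1.60 to 18.1). GINS4 was higher in IL-6, at 16.2 TPM (40 reads), and in HD, at 31.3 TPM (24 reads), than in LD, IL-8 and RM, where it lay between 4.17 and 4.99 TPM. GINS2 overlaps GSE1 on the opposite strand.

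PCNA, the clamp that tethers polymerases to DNA, was steady at low density and without a read in HD. Its levels were 39.3 TPM in LD (50 reads), 33.1 in IL-6 (28 reads), 29.6 in IL-8 (27 reads), 33.4 in RM (41 reads) and 0 in HD. Against a limit of 3 reads in HD, and with the LD reads taken as counted, PCNA was at least 4.55-fold lower in HD than in LD, and the counting interval of the ratio, which allows for error in both libraries, starts at 3.57-fold. RFC1, the large subunit of the loader that opens the clamp, had 41.6, 35.6, 30.1, 12.8 and 2.99 TPM from 125, 74, 109, 47 and 3 reads. RM was the lowest low-density library for RFC1, 2.32 times below LD in RPM (1.65 to 3.32), while the lower IL-8 value in TPM was a higher value in RPM, by 0.36 on the log2 scale against -0.46. RFC2 had 28.1 TPM in LD (46 reads), 16.9 in IL-6 (19 reads), 14.5 in IL-8 (18 reads), 9.90 in RM (16 reads) and 131 in HD (41 reads). The other 3 small subunits were near the limit of detection. RFC3 stood between 1.97 and 7.04 TPM on 2 to 8 reads, RFC4 between 3.81 and 18.6 TPM on 5 to 14 reads, and RFC5 between 0 and 4.46 TPM on 0 to 3 reads. PCNA has 3 named processed copies in the annotation, and RFC3 and RFC5 have 1 each, which reads of this length may not separate. RFC4 overlaps EIF4A2 and RFC5 overlaps WSB2 on the opposite strand.

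POLD2, the accessory subunit of polymerase delta, was the most abundant of the 44 transcripts in each low-density library, and came below RFC2 and LIG1 in HD. It had 1152 TPM in LD (1857 reads), 908 in IL-6 (981 reads), 985 in IL-8 (1176 reads), 1286 in RM (1959 reads) and 59.4 in HD (20 reads). Its partners were much scarcer in LD, with 35.3 TPM for POLD1, the catalytic subunit, and 11.2 TPM for POLD3, so the complex spanned 103-fold. POLD1 was at 35.3, 17.2, 8.71, 26.2 and 32.7 TPM from 123, 40, 22, 86 and 23 reads. It was lower with either cytokine alone than with neither or both, 2.06 times below LD in IL-6 (1.43 to 3.02) and 3.81 times in IL-8 (2.41 to 6.30), while RM and LD differed by less than the counting error. POLD3 ran from 7.42 to 17.7 TPM at low density, with 1.33 TPM and 1 read in HD. POLE, the catalytic subunit of polymerase epsilon, had 14.2 TPM in LD (76 reads), 7.41 in IL-6 (37 reads), 30.1 in IL-8 (79 reads), 27.2 in RM (83 reads) and 17.5 in HD (15 reads), and its RM difference from LD was 0.94 on the log2 scale of TPM and 0.33 on that of RPM. POLE2 had no read at low density and 1 in HD. POLD2 has 1 named processed copy in the annotation.

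Primer synthesis gave opposite values for its subunits in RM. POLA2, the second subunit of polymerase alpha, had 43.1 TPM in LD (99 reads), 52.2 in IL-6 (69 reads), 22.7 in IL-8 (35 reads), 106 in RM (194 reads) and 5.25 in HD (2 reads). PRIM1, the catalytic primase subunit, had 26.3, 12.7, 15.7, 8.13 and 10.5 TPM from 38, 12, 16, 11 and 3 reads. In RM, POLA2 was the highest of its libraries, at 2.25 times LD (1.76 to 2.89), while PRIM1 was 3.01 times lower than LD (1.51 to 6.53). POLA1, the catalytic subunit of polymerase alpha, was at 0.54 to 2.00 TPM on 3 to 10 reads at low density, and PRIM2, the large primase subunit, at 1.77 to 3.49 TPM on 4 to 7 reads, so neither gave a firm ratio there. PRIM1 overlaps NACA in the annotation.

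RPA1 and RPA2, subunits of the trimer that coats single-stranded DNA, were lower with either cytokine alone than in LD or RM. RPA1 had 26.2 TPM in LD (116 reads), 14.4 in IL-6 (43 reads), 6.29 in IL-8 (20 reads), 30.3 in RM (128 reads) and 5.97 in HD (6 reads), and RPA2 had 35.2, 18.7, 20.6, 32.9 and 11.8 TPM from 59, 21, 25, 53 and 4 reads. For RPA1 the counting intervals of both ratios left out 1, at 1.80 times lower in IL-6 (1.26 to 2.62) and 3.95 times lower in IL-8 (2.44 to 6.71). For RPA2 this held in IL-6 (1.88 times lower, 1.13 to 3.26) and not in IL-8. RPA3, the smallest subunit, had 10, 5, 2, 0 and 2 reads, and its count of 0 in RM put it at least 2.91-fold below LD by the same limit, with an interval that starts at 1.95-fold. RPA1 overlaps SMYD4 on the opposite strand, and RPA2 has 3 named processed copies.

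The enzymes of Okazaki fragment maturation moved apart from each other. LIG1, the ligase that joins the fragments, had 82.6 TPM in LD (250 reads), 56.6 in IL-6 (103 reads), 189 in IL-8 (371 reads), 43.9 in RM (119 reads) and 82.5 in HD (46 reads), highest in IL-8 at 2.18 times LD (1.85 to 2.57). FEN1, the flap nuclease, had 25.6, 47.0, 48.6, 70.4 and 22.9 TPM from 58, 67, 58, 133 and 8 reads, highest in RM at 2.63 times LD (1.92 to 3.65). RNASEH2A, which removes RNA primers, varied less at low density, from 101 TPM in IL-6 to 172 TPM in LD, and stood at 17.8 TPM on 4 reads in HD. FEN1 overlaps FADS2 and TMEM258 in the annotation and has 1 named processed copy.

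Nucleotide enzymes were split in RM. TK1, the thymidine kinase of the salvage pathway, had 73.2 TPM in LD (114 reads), 92.7 in IL-6 (96 reads), 36.6 in IL-8 (41 reads), 184 in RM (274 reads) and 48.0 in HD (15 reads). RRM1, the large subunit of ribonucleotide reductase, had 54.8, 52.1, 41.5, 16.5 and 15.2 TPM from 157, 91, 77, 40 and 10 reads. RM was the highest library for TK1, at 2.76 times LD (2.21 to 3.46), and the lowest at low density for RRM1, 3.42 times below LD (2.40 to 4.97). TYMS, which makes thymidylate from dUMP, had 31.5, 22.8, 35.5, 45.8 and 23.4 TPM from 46, 24, 40, 58 and 8 reads, and no ratio of it to LD left out 1. DUT, the dUTPase that keeps uracil out of DNA, had 85.7, 100.2, 83.2, 59.2 and 19.4 TPM from 180, 138, 117, 119 and 7 reads. RRM2, the small reductase subunit, was within 3.92 to 7.92 TPM at low density and at 32.9 TPM in HD. TYMS overlaps ENOSF1 on the opposite strand and has 2 named processed copies, while RRM2 has 3 and DUT has 8.

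Of the G1 to S regulators, CCNE1, which encodes cyclin E1, was read in LD and IL-6 and in no other library. It had 16.7 TPM in LD (30 reads), 3.91 in IL-6 (5 reads) and 0 reads in IL-8, RM and HD. That places it 4.01 times below LD in IL-6 (1.54 to 13.3), and at least 6.81-fold below in IL-8, 8.72-fold in RM and 2.73-fold in HD by the limit of 3 reads, with counting intervals that start at 5.20-fold, 6.66-fold and 2.09-fold. CCNE2, the other cyclin E, had 5 reads in LD, 1 in IL-8 and none elsewhere, too few to compare. E2F1, the activator of S phase genes, had 10.8 TPM in LD (29 reads), 29.4 in IL-6 (53 reads), 8.05 in IL-8 (16 reads), 9.30 in RM (24 reads) and 25.8 in HD (14 reads). UHRF1, which guides the copying of DNA methylation at forks, had 19.1, 20.1, 11.2, 4.88 and 11.6 TPM from 75, 51, 31, 18 and 9 reads. E2F1 was thus high in IL-6, at 2.73 times LD (1.71 to 4.46), and UHRF1 low in RM, 3.63 times below LD (2.15 to 6.46).

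In IL-6, the loaders CDC6 and CDT1, the GINS subunits GINS4 and GINS2, the clamp loader subunit RFC4 and E2F1 were above LD, and CCNE1 and the helicase subunit MCM4 were below it. Differences are of log2(TPM + 1), a scale on which low genes seem to change less than they do, and a gene was counted as higher or lower at 1 log2 unit or more. By that rule 8 of the 44 genes were higher in IL-6 and 4 were lower, where 12.2% of all 21313 genes tested were higher and 8.42% lower, and 17.2% and 11.9% of the 15130 genes with at least 1 TPM in a low-density library. The 8 were GINS4 (1.62), CDC6 (1.56), CDT1 (1.54), E2F1 (1.37), GINS2 (1.05) and, on few reads, RFC4 (1.78), RFC3 (1.24) and RFC5 (1.09). The 4 were CCNE1 (-1.85), MCM4 (-1.07), GINS3 (-1.24, on 3 reads in IL-6) and CCNE2 (-1.51, on 0 reads). Of the genes with enough reads to be named, POLD1 (-0.998), PRIM1 (-0.99) and RPA2 (-0.88) came next among the lower values. The counting interval of the read ratio left out 1 for 11 genes that were higher and 10 that were lower. Beside these stand 11.3% and 9.36% of all genes tested, and 15.8% and 13.2% of the 15130. Whether an interval leaves out 1 depends on the number of reads. Among genes with a mean of at least 10 TPM, 33 of the 44, 6 were higher and 1 lower, beside 13.3% and 7.93% of 8590. By the counting interval 10 of these 33 were higher and 9 lower, beside 20.5% and 17.3%. The median difference of the 44 genes was 0.01, and that of the 15130 genes 0.06. In a bulk library, fewer cells that express a gene and less of its RNA per cell cannot be told apart.

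In IL-8, the loaders CDC6 and CDT1, the subunits GINS2 and GINS3 and the ligase LIG1 were above LD, and POLD1, RPA1, GINS1, MCM2 and CCNE1 were below it. Subunits of the same complex differed, with POLD3 at 0.62 and POLD2 at -0.23 beside POLD1. There were 6 genes higher and 6 lower than in LD, beside 9.4% and 18% of all genes tested, and 13.2% and 25.3% of those with at least 1 TPM at low density. The higher ones were GINS3 (1.63), GINS2 (1.49), CDT1 (1.37), CDC6 (1.36), LIG1 (1.18) and POLE (1.04 in TPM, and 0.61 as a log2 ratio of RPM). The lower ones were CCNE1 (0 reads), POLD1 (-1.90), RPA1 (-1.90), GINS1 (-1.76), MCM2 (-1.16) and, on 2 reads, RPA3 (-1.42). By the counting interval 9 were higher and 10 lower, against 10.2% and 17% of all genes tested and 14.4% and 24% of the 15130. The median was -0.20 for the 44 genes and -0.27 for the 15130, and scaling by median ratios, which adds 0.41 to each IL-8 to LD difference in log2 TPM, turned the former to 0.16 with 11 genes higher and 5 lower.

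RM, with both cytokines, placed 16 of the 44 genes at least 1 log2 unit from LD, where IL-6 and IL-8 each placed 12. Of the 15130 genes, 8824 lay within 1 unit of LD for RM, against 10738 for IL-6 and 9301 for IL-8. The larger count for RM can therefore not be read as particular to the 44 genes. The counting interval did not keep this order. It gave 7 genes higher and 12 lower for RM, 11 and 10 for IL-6, and 9 and 10 for IL-8. MCM3, FEN1, TK1 and POLA2 were higher than in LD, and 12 genes spread over all roles were lower. The differences were 1.71 for MCM3, 1.43 for FEN1, 1.32 for TK1 and 1.29 for POLA2, followed by CDT1 at 0.93, and these 4 of 44 stand beside 7.11% of all genes tested and 10% of the 15130. The 12 lower genes stand beside 22.5% and 31.7%. They were UHRF1 (-1.77), MCM2 (-1.76), GMNN (-1.69), RRM1 (-1.68), RFC1 (-1.62), PRIM1 (-1.58), RFC2 (-1.42), GINS1 (-1.27), GINS3 (-1.09, on 5 reads), and CCNE1, RPA3 and CCNE2 with no read in RM. By the counting interval 7 were higher and 12 lower, against 9.2% and 22% of all genes tested and 12.9% and 31% of the 15130. MCM5 (1.17, 1.06 to 1.30), POLD2 (1.21, 1.14 to 1.29) and CDT1 joined the higher ones. Among the 33 with a mean of at least 10 TPM, 4 were higher and 8 lower, beside 10.3% and 28.4%. The median difference of the 44 genes was -0.16, above the -0.46 of the 15130 genes, and its sign depended on the scaling. With median-ratio factors, which add 0.72 to each RM to LD difference in log2 TPM, the median was 0.47 with 11 genes higher and 6 lower, beside 14.1% and 13.0% of all genes, and with TMM-scaled counts, where RPM alone gave -0.07, it was 0.31 with 8 higher and 8 lower. MCM3, FEN1, TK1 and POLA2 stayed at least 1 log2 unit higher under each scaling, pseudocount and unit tried, and MCM2, GMNN, UHRF1, CCNE1 and RPA3 at least 1 unit lower, while the other 7 did not under at least 1 of them, with RRM1 at -0.98, RFC1 at -0.77 and RFC2 at -0.75 at their smallest.

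**Figure D3:**
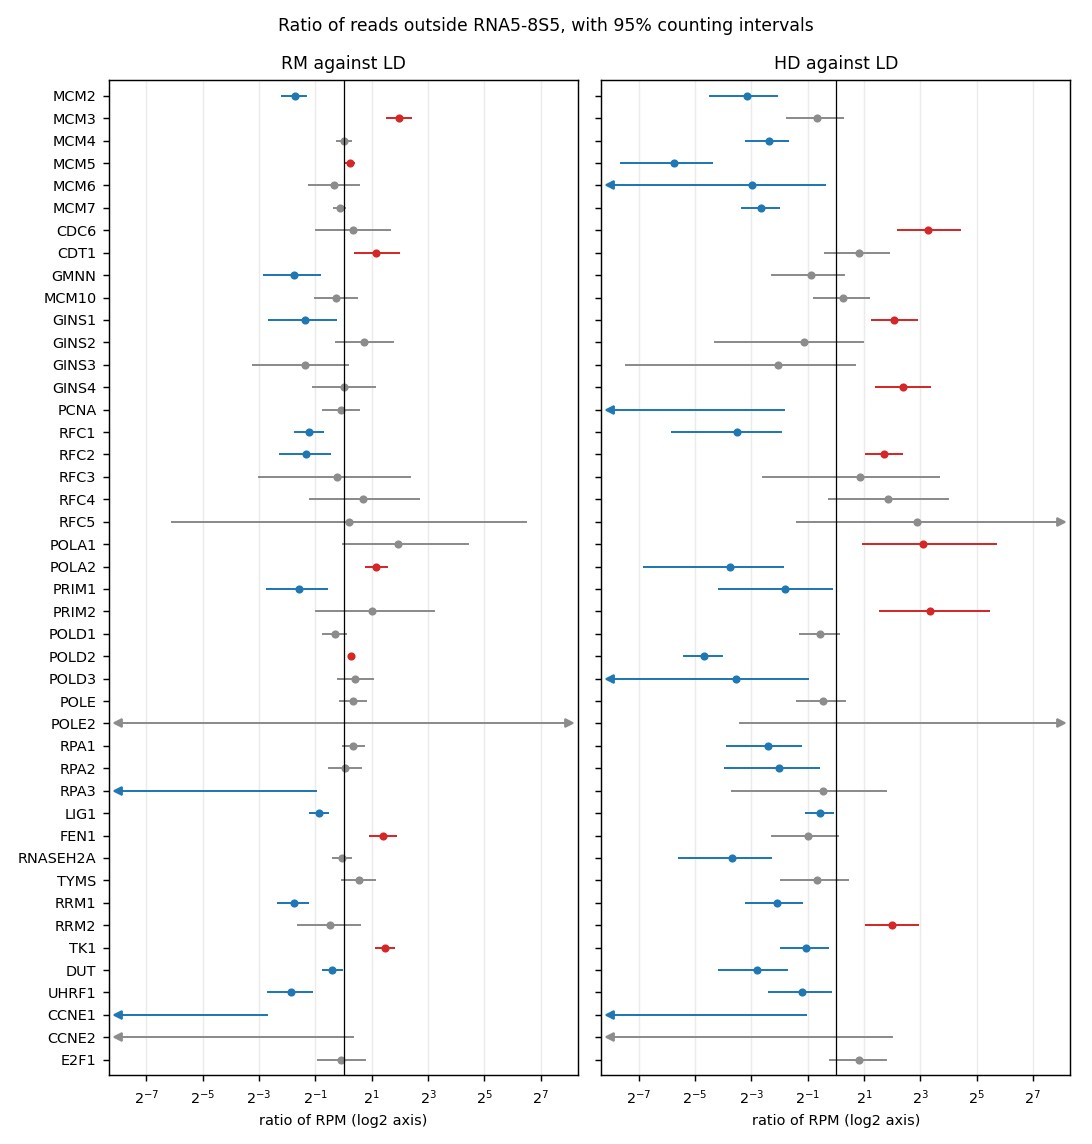
Ratio of RPM, RM against LD on the left and HD against LD on the right, on log2 axes, with 95% counting intervals; red and blue mark intervals wholly above and below 1, and arrowheads mark bounds beyond the axis. MCM3, FEN1, TK1 and POLA2 lie to the right in RM, and the HD intervals are wider and reach farther to both sides.

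RM was also set against each cytokine alone. Compared with IL-6, 4 genes were higher in RM, beside 6.92% of all genes tested and 9.75% of the 15130, and 14 lower, beside 26% and 36.6%. The 4 were POLE (1.75 in TPM, and 0.78 as a log2 ratio of RPM), MCM3 (1.18), RPA1 (1.02) and POLA2 (1.01), and the lower ones included GMNN (-2.58), MCM2 (-1.97), UHRF1 (-1.84), GINS4 (-1.73), RRM1 (-1.60) and E2F1 (-1.56). By the counting interval 14 were higher and 13 lower, beside 7.95% and 22.1% of all genes tested and 11.2% and 31% of the 15130. Among the 33 genes with a mean of at least 10 TPM, 4 were higher and 9 lower, beside 9.8% and 32.7%. The median was -0.44 and turned to 0.13 with 14 higher and 6 lower under median-ratio scaling. Compared with IL-8, 5 genes were higher, beside 10.9% and 15.3%, and 9 lower, beside 16.9% and 23.8%. Those higher were TK1 (2.3), POLA2 (2.18), RPA1 (2.10), MCM3 (1.88) and POLD1 (1.49), and those lower included GINS3 (-2.72), LIG1 (-2.08), GMNN (-1.93), RRM1 (-1.28) and MCM7 (-1.18). By the counting interval 9 were higher and 11 lower, beside 10.8% and 15.6% of all genes tested and 15.1% and 22% of the 15130. The median was -0.18, and 0.00 with 6 higher and 4 lower under median-ratio scaling. Taking LD, IL-6 and IL-8 in turn, RM lay at least 1 log2 unit above each of them for MCM3 and POLA2. These 2 of 44 genes stand beside 3.56% of all genes tested and 5.01% of the 15130. RM lay at least 1 unit below each for GMNN, RFC1, RPA3, RRM1 and UHRF1, 5 of 44 beside 7.16% and 10.1%. Under median-ratio scaling RFC1, RRM1 and UHRF1 no longer met this, with differences from IL-8 of -0.88, -0.99 and -0.80, and RPA3 rests on 0 reads in RM against 2 in IL-8. POLA2 against IL-6 came to 0.96 at its smallest, with a pseudocount of 5.

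In HD, MCM5, PCNA, POLD2 and RNASEH2A were far below LD, and CDC6, PRIM2, GINS4 and GINS1 were above it. There were 13 genes higher than in LD, beside 60.1% of all genes tested, and 19 lower, beside 20.3%. The direction went with the level in LD. There the 13 had 0 to 28.1 TPM, with a median of 3.81, and the 19 had 1.84 to 1152 TPM, with a median of 41.6. Whether genes outside the 44 divide in the same way was not tested. POLE2, among the 13, passed the filter through its single HD read alone, as did the part of the 21313 genes that are not among the 15130. Over the 43 of the 44 that reached 1 TPM at low density, 12 were higher and 19 lower, beside 44.2% and 28.6%. The median difference was -0.51 for the 44 genes, against 1.85 for all genes tested and 0.51 for the 15130. Among the 33 genes with a mean of at least 10 TPM, 8 were higher and 15 lower, beside 39.2% and 37.8%. Of the MCM ring 5 subunits were among the lower genes, with MCM3 the exception at -0.22. The largest decreases, apart from PCNA and CCNE1 with 0 reads in HD, were those of MCM5 (-5.57), POLD2 (-4.25), RFC1 (-3.41, on 3 reads) and RNASEH2A (-3.20). In RPM MCM5 was 53.6 times lower (20.8 to 197) and POLD2 25.4 times lower (16.4 to 41.6).

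The genes higher in HD were led by the loader CDC6 (3.45), primase subunit PRIM2 (3.08), GINS4 (2.53), GINS1 (2.45), the reductase subunit RRM2 (2.26), POLA1 (2.24) and RFC2 (2.18). Of these, PRIM2 rested on 11 reads in HD and 4 in LD, and POLA1 on 7 and 3. The counting intervals of these 7 genes left out 1. In RPM, CDC6 was at 9.65 times LD (4.68 to 21.4) and GINS1 at 4.20 times (2.43 to 7.32). The other 6, RFC4, POLE2, RFC5, RFC3, E2F1 and CDT1, had intervals that included 1. By the counting interval 7 genes were higher and 20 lower in HD. Beside these stand 42.4% and 19.8% of all genes tested, and 34.9% and 27.8% of the 15130. LIG1 was level with LD in TPM (0.00) and 1.49 times lower in RPM (1.08 to 2.08). In RPM in place of TPM 10 genes were higher and 21 lower, with a median of -0.96, and adding TMM factors to the counts gave 10 and 29 with a median of -1.47. Only 9 of the 44 genes had 20 or more reads in HD. The low mesenchymal markers, the reads on leukocyte and olfactory receptor genes and the small number of reads given above belong to this same library, and their part in the result was not tested.

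Across the 44 genes, the level in 1 library followed that in another closely at low density and loosely with HD. Pearson's r of log2(TPM + 1) was between 0.87 and 0.90 for the 6 pairs of low-density libraries and 0.31, 0.45, 0.40 and 0.39 for HD with LD, IL-6, IL-8 and RM. Over the 21313 genes the values were 0.89 to 0.93 at low density and 0.31 to 0.34 with HD. These points share gene length and base composition, and genes are not replicates. HD held the highest level of 12 genes and the lowest of 19, more than any other library in either direction. No such count was made over all genes, so whether the 12 and 19 are particular to the 44 genes was not tested. By the other measure, at least 1 log2 unit from LD, 44.2% of the 15130 genes were higher in HD and 28.6% lower. For the 44 genes these shares were 29.5% and 43.2%.

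**Figure D4:**
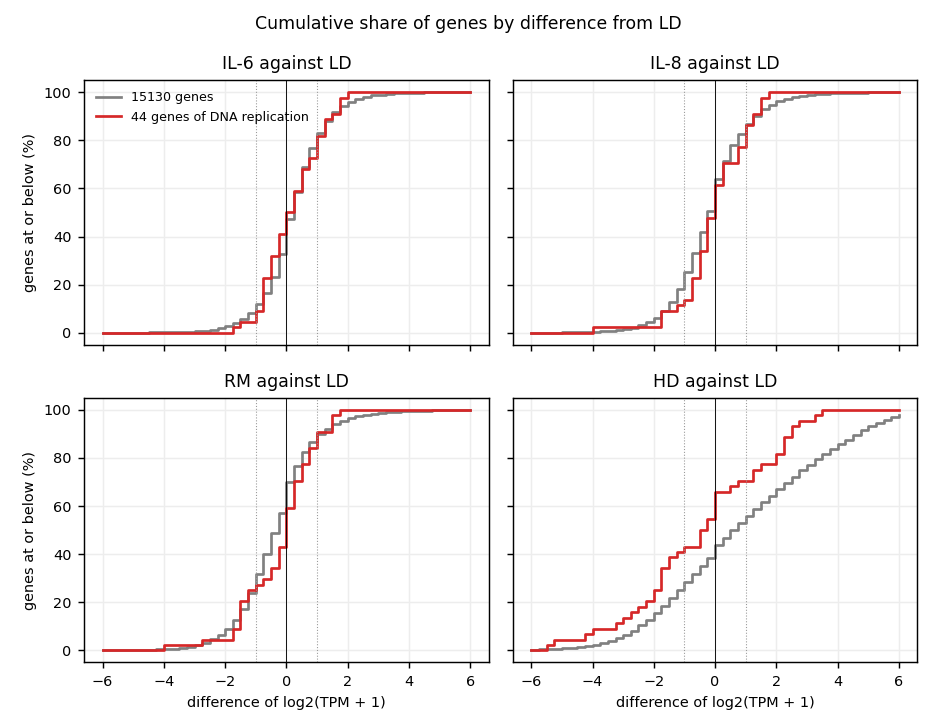
Cumulative share of genes at or below each difference of log2(TPM + 1) from LD, read at steps of 0.25, for the 44 genes in red and the 15130 genes with at least 1 TPM at low density in grey. The curves run close together in IL-6, the red curve lies to the right of the grey one around 0 in IL-8 and RM, and in HD it lies to the left throughout most of the range.

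Related genes outside the 44 were set against LD in the same way, beside all 15130 genes, of which 31.7% were lower and 10% higher in RM with a median of -0.46. Of 29 other replication genes, such as those of ORC and CDC45, 15 were lower in RM than in LD and 0 higher, with a median of -1.08. Of 29 other genes of nucleotide synthesis 10 were lower and 0 higher (median -0.82), of 19 other G1 to S regulators 6 lower and 1 higher (median -0.53), and of 32 mitosis and spindle genes 19 lower and 0 higher (median -1.08). The share that was lower lay near that of all genes for the nucleotide and G1 to S lists and above it for the other lists, and a difference from the 44 genes, with their median of -0.16, was not tested. The values of these lists are without median-ratio factors. Such factors add 0.72 to each RM to LD difference in log2 TPM and 0.41 to each IL-8 to LD difference, so these counts and medians depend on the scaling. In IL-8 the medians were -0.23, -0.12, -0.65 and -0.69 for those 4 lists in the same order, with 10, 5, 5 and 14 genes lower, beside 25.3% of the 15130 genes and a median of -0.27. IL-6 gave medians of -0.24, 0.09, -0.16 and -0.09, with at most 2 genes of any list higher or lower. Beside these stand 17.2% higher and 11.9% lower of the 15130 genes, with a median of 0.06. In HD the medians were 0.18, -0.71, -0.26 and -1.19, and 9, 9, 6 and 5 genes were higher while 11, 12, 8 and 19 were lower, beside 44.2% higher and 28.6% lower of the 15130 genes.

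**Figure D5:**
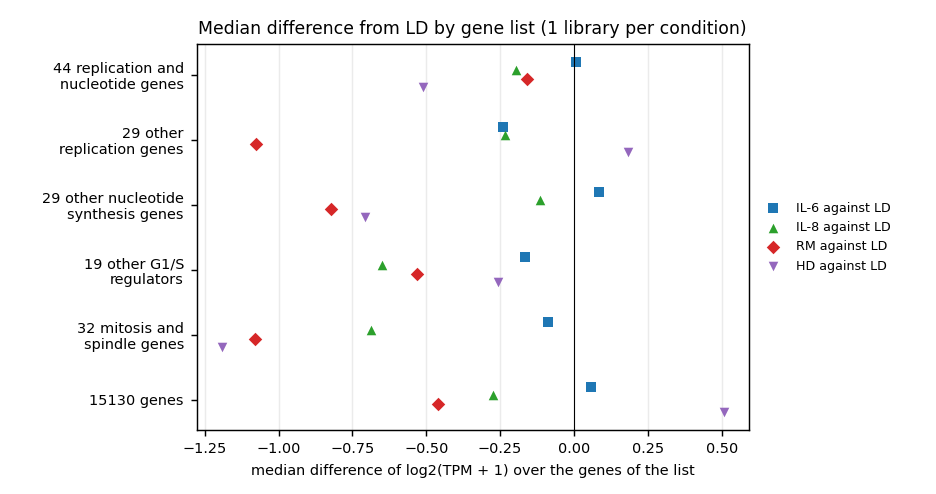
Median difference of log2(TPM + 1) from LD over each gene list, with 1 symbol per condition. In RM the 44 genes have a median of -0.16 and the mitosis and spindle genes one of -1.08, while in IL-6 every list lies within 0.25 of 0. Median-ratio factors are not applied.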

How the data were processed

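RNA-seq libraries of 5 conditions, 1 each, were compared. The authors embedded the cells in collagen, amplified poly-A cDNA, sequenced 50-base single reads without strand and quantified genes with RSEM, and their notes to the repository name Bowtie2 2.3.1, RSEM 1.2.25, CASAVA 1.4, Bowtie and FastQC. The build in those notes is GRCh37 (hg19), and the annotation is not given in the sources used here. The authors deposited whole-number read counts per gene, not normalized, and as deposited the TPM values are relative to transcript length and library total. The cell-free collagen control that the series mentions was not analysed here.

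TPM was rescaled to 1000000 without RNA5-8S5. The 21313 genes that reached 1 TPM in any library were compared as log2(TPM + 1), with 1 log2 unit as threshold. Read counts gave exact 95% Poisson intervals and conditional Clopper-Pearson intervals of ratios of RPM, and a floor of 3 reads. With 1 library per condition no model was fitted. The scripts were tested on simulated data. Alternatives were pseudocounts of 0.1 and 5, RNA5-8S5 kept, median-ratio factors, RPM from read counts, TMM factors (edgeR 4.0.16, R 4.3.3), no filter, a mean TPM of at least 10, a threshold of 2 log2 units and the counting interval. The filter on low-density libraries and a floor of 3 reads for genes without a read were chosen after seeing the data. Python 3.11.15, numpy 2.4.6, pandas 2.3.3 and scipy 1.17.1 were used. The 44 genes and all lists were chosen with earlier results of these data known. Named with full values were PCNA, the MCM ring, CDC6, CDT1, GMNN, the nucleotide enzymes, the G1 to S regulators and UHRF1. So were, in each condition, the 5 largest increases and decreases from LD among genes with at least 20 reads in the pair. The others were given by role. Overlapping genes and processed copies are from GENCODE on GRCh38, matched by symbol. A search of protein sequences for PCNA-binding motifs was planned and not run.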

Additional observations from a re-analysis of the deposited data

How the results depend on the processing

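Of 204 alternative values of the counts and medians of the 44 genes, 162 stayed within 1.5 times the count or within the allowed distance of the median. With median-ratio factors the medians were 0.16 in IL-8 and 0.47 in RM against LD and 0.13 in RM against IL-6; 11 genes were higher in IL-8 and 11 in RM with 6 lower, 14 were higher and 6 lower in RM against IL-6, and 4 were lower in RM against IL-8. With TMM-scaled read counts, RM had a median of 0.31 and 8 higher genes, RM against IL-6 a median of 0.013 with 14 higher and 8 lower, and 29 genes were lower in HD. By the counting interval, 10 genes were lower in IL-6 and 10 in IL-8, 7 were higher in RM and 7 in HD, and 14 and 9 were higher in RM against IL-6 and IL-8. A pseudocount of 5 left 5 higher genes and 1 lower in IL-6, 8 higher in HD, 2 higher and 7 lower in RM against IL-6 and 5 lower in RM against IL-8. Among genes with a mean TPM of at least 10, 1 was lower in IL-6, 8 were higher in HD and 9 lower in RM against IL-6. At 2 log2 units, 0 genes were higher and 0 lower in IL-6, 0 and 1 in IL-8, 0 and 2 in RM, 8 and 11 in HD, 0 and 3 in RM against IL-6, and 3 and 2 in RM against IL-8. The cause of these shifts was not tested, beyond fewer genes passing a stricter threshold or filter. For 56 differences of named genes, 553 alternatives gave 0 values of opposite sign, 19 that moved beyond the counting interval and 33 under 1 log2 unit. These 56 were not all differences of the 44 genes, and over all of them some signs did depend on the alternative. In RM against LD, MCM4 ran from -0.13 to 0.59, MCM7 from -0.29 to 0.44 and PCNA from -0.24 to 0.47. CCNE2 in HD against LD, on few reads, ran from -4.28 to 0.83. No paired analysis was possible because each condition had 1 library, and no library could be left out of a condition. Depth limits HD most, where 9 of the 44 genes had at least 20 reads.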
